A study of Homo sapiens with 36 samples.

Results

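The genes described are PLAU, PLAT, PLAUR, SERPINE2 and SERPINB2, which act in plasminogen activation, and F3, which starts clotting. These 6 genes are followed across 4 human cell lines of non-small cell lung cancer. They were taken by gene name from the deposited expression files, where 6 of 66366 genes carried these names. RNA was measured in 36 libraries, 3 for each of 12 groups of line and treatment. Per the labels, H3255 carries EGFR with L858R, H1975 has L858R and T790M, H820 has Ex19del with T790M, and A549 has WT EGFR. Cells received 3 µM MinE07, an aptamer directed at EGFR (aptamers are short nucleic acids whose fold gives them affinity for a target), 3 µM of a control aptamer that is an extended version of C36, or vehicle, which was DPBS and magnesium, for 24 h. Every group was kept in medium with 1% serum during treatment. A549 was grown in DMEM and H3255, H1975 and H820 in RPMI, so a level particular to A549 and an effect of its medium cannot be told apart. Each EGFR genotype is represented by a single line, so genotype and cell background cannot be told apart either. The series text describes the 3 experiments as biologically independent.

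Plasminogen is a circulating zymogen that is cut to the protease plasmin, which degrades fibrin and extracellular matrix and activates some matrix metalloproteinases. PLAU encodes urokinase (uPA) and PLAT encodes tissue-type plasminogen activator (tPA), the proteases that make this cut; PLAUR encodes the membrane-anchored urokinase receptor, which holds uPA at the cell surface. SERPINE2 (protease nexin-1) and SERPINB2 (PAI-2) encode serpins, inhibitors that trap these activators. F3 encodes tissue factor, the membrane receptor for coagulation factor VII that starts the clotting cascade and so the deposition of the fibrin that plasmin removes. Transcription of PLAU, PLAUR and F3 is known to respond to growth factor signalling through the ERK pathway, in part through AP-1 sites, and EGFR is one of the receptors that feeds this pathway.

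In GENCODE 29 (GRCh38) all 6 are annotated as protein-coding, and 5 are placed here: F3 lies at chr1:94529225-94541800 (minus strand), SERPINE2 at chr2:223975112-224039319 (minus), PLAU at chr10:73909177-73917497 (plus), SERPINB2 at chr18:63871692-63903890 (plus), PLAUR at chr19:43646095-43670547 (minus). PLAT is also on a minus strand, and it had no entry in the table of start-site sequences. C10orf55 overlaps PLAU on the opposite strand and was listed at 0 to 1.20 FPKM, RN7SL368P overlaps PLAUR on the same strand at 0 to 0.804 FPKM, and SERPINB10 overlaps SERPINB2 at 0 FPKM. Whether strand was used in the authors' quantification is not given in the sources used here. The sequences before the start sites of F3, PLAUR and PLAU are shown because all 3 genes had lower RNA after MinE07 in H3255 and, by less, in H1975. They are the 250 bases before the start on the gene's own strand, from RefSeq's windows on GRCh38.p14, with capitals marking matches to the AP-1 letters TGANTCA. F3 spans chr1:94541760-94542009, PLAUR chr19:43670170-43670419, the first PLAU start chr10:73910360-73910609 and the second chr10:73910882-73911131. The starts are those of RefSeq and differ from the ends of the GENCODE spans above. The PLAUR stretch and both PLAU stretches lie within the GENCODE spans of their genes, and the F3 stretch overlaps its span in part.
F3: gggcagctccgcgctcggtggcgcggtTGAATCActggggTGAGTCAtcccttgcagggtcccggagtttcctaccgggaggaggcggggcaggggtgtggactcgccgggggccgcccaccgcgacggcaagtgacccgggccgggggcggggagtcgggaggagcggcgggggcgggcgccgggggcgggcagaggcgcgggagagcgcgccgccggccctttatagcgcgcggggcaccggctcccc
PLAUR: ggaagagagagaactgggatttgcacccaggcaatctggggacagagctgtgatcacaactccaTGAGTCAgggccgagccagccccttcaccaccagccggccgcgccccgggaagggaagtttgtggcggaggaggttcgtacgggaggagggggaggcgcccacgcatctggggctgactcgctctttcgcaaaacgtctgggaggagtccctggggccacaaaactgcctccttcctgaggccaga
PLAU, first start: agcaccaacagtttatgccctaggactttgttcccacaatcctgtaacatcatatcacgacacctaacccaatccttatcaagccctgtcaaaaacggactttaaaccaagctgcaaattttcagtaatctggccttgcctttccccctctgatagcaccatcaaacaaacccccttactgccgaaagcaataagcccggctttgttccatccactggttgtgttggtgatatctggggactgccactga
PLAU, second start: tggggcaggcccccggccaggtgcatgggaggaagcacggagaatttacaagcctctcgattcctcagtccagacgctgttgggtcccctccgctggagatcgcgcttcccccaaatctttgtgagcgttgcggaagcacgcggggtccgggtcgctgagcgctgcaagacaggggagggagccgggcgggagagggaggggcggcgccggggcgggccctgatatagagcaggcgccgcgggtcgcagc
The letters were searched on both strands in RefSeq windows of 300 bases, which add the 50 bases after each start and of which the table held 7 for 5 of the 6 genes. The F3 window held TGAATCA at position -223 and TGAGTCA at -210, counted back from the start, and PLAUR held TGAGTCA at -186. Across all 35116 windows of the same length, 7.7% held TGANTCA and 0.52% held 2 or more matches. PLAUR also held the ETS letters GGAAGT at -133, which 22.8% of windows held, and F3 held the TATA letters TATAAA on the reverse strand at -28, which 11.5% of windows held. SERPINB2 held TGAATCA at -102 and TATAAA at -30. These letters were found in neither PLAU window and in neither SERPINE2 window. Sequence outside the windows was not searched, so sites farther from a start would be missed. The 3 motifs do not overlap one another in these windows, and a match in letters is a description of the sequence.

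Values are FPKM (sequenced fragments of a gene divided by its transcript length and by the library total), so levels of different genes can be set side by side. Summed FPKM ran from 362928 to 449811 per library and 13236 to 14267 genes exceeded 1 FPKM. The files hold no read counts. Depth relative to the median library, computed from the most common ratio between libraries of low FPKM values of the same gene, ran from 0.59 to 1.385. All 5 epithelial markers (EPCAM, CDH1, KRT8, KRT18, KRT19) were at 1 FPKM or more on average in every line, all 4 endothelial markers were below it, and of the 4 leukocyte markers PTPRC and CD3E were near 0 in every line, while CD68 averaged 81.7 FPKM in A549, 60.9 in H1975, 17.0 in H820 and 1.91 in H3255 and CD14 was above 1 FPKM in all lines but H3255. Of the 5 fibroblast markers DCN was near 0 in every line, whereas LUM averaged 41.1 FPKM in H820 and COL1A2 averaged 7.40 FPKM in H1975.

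In vehicle, the 4 lines expressed different parts of the system. PLAU was highest in H1975, whose libraries read 84.2, 85.7 and 86.1 FPKM. H820 followed at 40.9, 42.3 and 38.7 FPKM, then A549 at 12.4, 12.2 and 11.3 FPKM and H3255 at 8.56, 9.33 and 9.97 FPKM. No library of one line overlapped another line's in PLAU, and the smallest step, H3255 below A549, was -0.35 on the log2(FPKM + 0.5) scale (SE 0.0547, limma adjusted p = 1.14e-06). PLAT, the other activator, had a different order. Vehicle PLAT was 39.6 ± 2.13 FPKM (SD, n = 3) in H3255. It was 5.80 ± 0.145 FPKM in H1975 and 4.32 ± 0.0865 in H820, and A549 had 0.323 ± 0.0712. H3255 was therefore the line with the lowest PLAU and the highest PLAT, with more PLAT than PLAU RNA, while the other 3 lines had more PLAU than PLAT.

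The receptor PLAUR was above 16 FPKM in every vehicle library. Vehicle libraries read 49.3, 47.9 and 51.0 FPKM in H3255, 29.6, 28.6 and 30.3 in H1975, 21.3, 18.6 and 18.6 in A549, and 19.2, 17.4 and 16.5 in H820. A549 and H820 overlapped, and their difference of -0.14 (H820 minus A549, log2 scale, adjusted p = 0.028) rested on single libraries, since it gave an adjusted p of 0.245 without the first A549 vehicle library, 0.0715 without the second H820 vehicle library and 0.181 without the third. F3 was 32.7 ± 2.13 FPKM in H3255, 17.3 ± 0.581 in H820, 16.7 ± 0.505 in H1975 and 2.24 ± 0.166 in A549 (SD, n = 3). H1975 and H820 did not differ beyond their spread in F3 (-0.05 on the log2 scale, adjusted p = 0.506), although rescaling the libraries by medians of ratios gave -0.23 with an adjusted p of 0.0019. That rescaling moved the median difference of all genes between these lines from 0.15 to -0.0021. A549 had the lowest PLAT and F3 of the 4 lines.

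The inhibitors were present in fewer lines. SERPINE2 was 28.9 ± 0.768 FPKM in H820 and 6.47 ± 0.511 FPKM in A549 vehicle libraries (SD, n = 3). In H1975 its 9 libraries stayed between 0.0178 and 0.0755 FPKM, and in H3255 it was listed at 0 in 5 of 9 libraries and reached 0.0175 FPKM in the others. SERPINB2 was listed at 0 in 9 of 9 H3255 libraries and 7 of 9 A549 libraries, and its highest value outside H1975 was 0.0402 FPKM. In H1975 it read 0.426, 0.347 and 0.647 FPKM in vehicle, so neither serpin exceeded 1 FPKM in H3255 or H1975.

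Differences between lines were common over the genome. In the fit of all 36 libraries, 5 of the 6 genes passed the filter of a mean of 1 FPKM (SERPINE2 only through H820 and A549). All 5 were called (adjusted p under 0.05) in H3255 against H820, H3255 against A549, H1975 against A549 and H820 against A549, where 86.3%, 87.1%, 84.6% and 85.2% of the 14572 genes tested were called. All 5 were called in H3255 against H1975, where 86.1% of genes were called, though SERPINE2 is near 0 in both (adjusted p = 0.0344, and 0.0737 after rescaling), and 4 of 5 in H1975 against H820, where 83.7% were. With most genes called in every pair, nothing particular to the 6 genes is read from these calls.

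**Figure D1:**
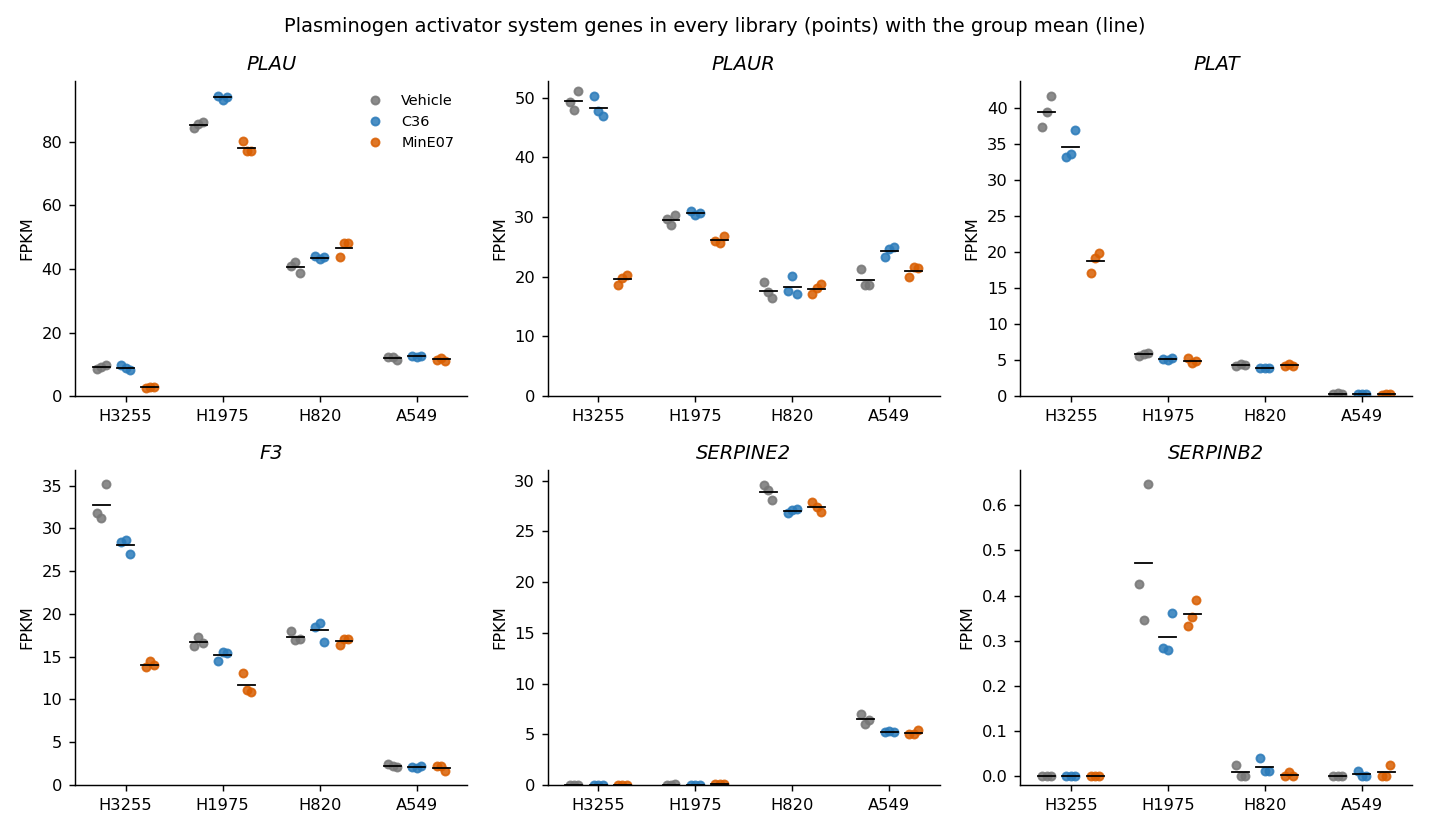
FPKM of the 6 genes in each of the 36 libraries, by line and treatment; each point is 1 library, and each axis has its own scale. In H3255 the MinE07 libraries of PLAU (2.47 to 3.02 FPKM), PLAUR, PLAT and F3 lie below every C36 and vehicle library, while SERPINE2 is seen in H820 and A549 and SERPINB2 stays under 1 FPKM in every library.

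MinE07 against C36 asks what the EGFR aptamer does beyond an aptamer of another sequence, and in H3255 PLAU, PLAT, PLAUR and F3 were all lower with MinE07. Each was tested, since its mean over the 9 H3255 libraries was at least 1 FPKM, and its mean was above 1 FPKM in each of the 3 groups. SERPINE2 and SERPINB2 were below the filter. All 4 were called lower against C36, where 20% of the 13429 genes tested were called lower and 16.6% higher. All 4 were also called lower against vehicle, where 17.2% of genes were. The MinE07 libraries of all 4 lay below every C36 and every vehicle library, a pattern found in 27.1% of genes against C36 and in 21.9% against vehicle. Of the 5 epithelial markers, KRT18 (-0.38, adjusted p = 2.63e-05) and KRT8 (-0.13, adjusted p = 0.0108) were also called lower in H3255 for MinE07 against C36, the summed level of the list being 1542 to 1594 FPKM with MinE07, 1722 to 1761 with C36 and 1822 to 1887 with vehicle; their part in the result was not tested.

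Among the activators, PLAU fell most. H3255 libraries read 2.47, 2.86 and 3.02 FPKM with MinE07, 9.70, 8.91 and 8.36 with C36, and 8.56, 9.33 and 9.97 with vehicle. C36 and vehicle libraries overlap, and the highest MinE07 library is under every one of them. The log2 change was -1.53 against C36 (SE 0.0761, limma adjusted p = 4.45e-07) and -1.58 against vehicle (adjusted p = 3.66e-07), the change against C36 ranking 32 from the lowest of 13429 genes. PLAT read 17.1, 19.3 and 19.9 FPKM with MinE07, 33.3, 33.7 and 37.0 with C36, and 37.5, 39.5 and 41.7 with vehicle. Its change was -0.87 against C36 (SE 0.0624, adjusted p = 5.06e-06) and -1.06 against vehicle (adjusted p = 1.2e-06). PLAT stayed the more abundant activator RNA in H3255 under all 3 treatments.

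The receptor fell with its ligand. PLAUR in H3255 read 18.6, 19.7 and 20.3 FPKM with MinE07, 50.3, 47.8 and 46.9 with C36, and 49.3, 47.9 and 51.0 with vehicle. Its change was -1.28 against C36 (SE 0.0418, adjusted p = 3.32e-08) and -1.32 against vehicle (adjusted p = 2.58e-08), rank 42 from the lowest against C36. With MinE07, H3255 thus had PLAUR at a level close to that of A549 and H820 in vehicle, a comparison of values that was not tested. F3 read 13.8, 14.4 and 14.0 FPKM with MinE07, 28.4, 28.6 and 26.9 with C36, and 31.8, 31.2 and 35.2 with vehicle. The F3 change was -0.97 against C36 (SE 0.0464, adjusted p = 2.89e-07) and -1.19 against vehicle (adjusted p = 7.52e-08). For F3 and PLAT the C36 libraries also lay below every vehicle library, by -0.22 (adjusted p = 0.0786) and -0.19 (adjusted p = 0.195); the F3 difference was called after rescaling by medians of ratios (adjusted p = 0.0341).

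In H1975, which carries T790M beside L858R, the same genes moved less. PLAU read 80.2, 77.0 and 77.1 FPKM with MinE07, 94.5, 93.2 and 94.1 with C36, and 84.2, 85.7 and 86.1 with vehicle. MinE07 lay below both controls, and C36 lay above vehicle. The change was -0.26 against C36 (SE 0.0269, adjusted p = 0.000263) and -0.13 against vehicle (adjusted p = 0.0085, which rose to 0.0896 when all 36 libraries were fitted together), so the size depends on the control. C36 against vehicle was 0.14 for PLAU and was not called (adjusted p = 0.0649).

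PLAUR in H1975 read 25.96, 25.7 and 26.8 FPKM with MinE07, 31.1, 30.3 and 30.6 with C36, and 29.6, 28.6 and 30.3 with vehicle. Its change was -0.23 against C36 (SE 0.0311, adjusted p = 0.0012) and -0.17 against vehicle (adjusted p = 0.00417). F3 had the largest change of the 6 genes in this line, with 13.1, 11.1 and 10.9 FPKM after MinE07, 14.5, 15.5 and 15.4 after C36, and 16.2, 17.2 and 16.6 with vehicle. The F3 change was -0.36 against C36 (SE 0.062, adjusted p = 0.00353) and -0.50 against vehicle (adjusted p = 0.000707). PLAT read 5.31, 4.57 and 4.92 FPKM with MinE07, 5.12, 5.01 and 5.24 with C36, and 5.65, 5.81 and 5.94 with vehicle. MinE07 and C36 overlap in PLAT (-0.05, adjusted p = 0.518), and MinE07 lay below vehicle by -0.21 (adjusted p = 0.0135; 0.0554 with no filter on low values).

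In all, 3 of the 4 genes tested in H1975 were called lower against C36, where 11.1% of 14183 genes were called lower and 8.88% higher. All 4 were called lower against vehicle, where 12.9% of genes were. Libraries did not overlap, with MinE07 lower, for 3 of the 4 against C36 (21.6% of all genes) and for all 4 against vehicle (20.5%). Of the 5 epithelial markers, CDH1 (0.13, adjusted p = 0.0232) and EPCAM (0.10, adjusted p = 0.0367) were called higher with MinE07 than with C36 in H1975. KRT8, KRT18 and KRT19 were not called. Of the 5 fibroblast markers, COL1A1 (0.27, adjusted p = 0.00328) and COL1A2 (0.38, adjusted p = 0.00414) were also called higher. The summed level of the fibroblast list was 14.8 to 15.9 FPKM with MinE07, 11.3 to 12.9 with C36 and 11.2 to 12.2 with vehicle. DCN and LUM were near 0, and the part of either list in the result was not tested. SERPINE2 and SERPINB2 were below the filter in H1975. With no filter on low values, SERPINB2 changed by 0.09 against C36 (adjusted p = 0.748), and SERPINE2 by 0.10 (adjusted p = 0.0944).

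**Figure D2:**
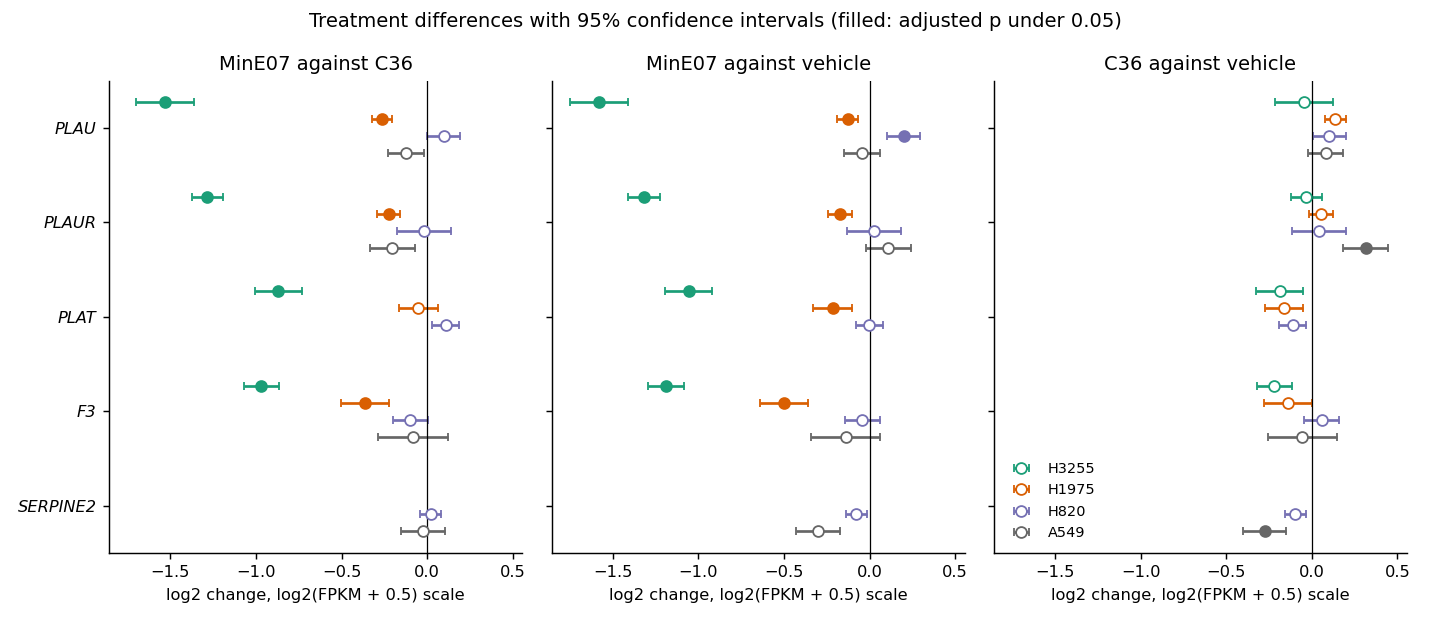
Log2 change of each tested gene for the 3 treatment comparisons in each line; points are the estimates from the fit of the 9 libraries of a line and bars are 95% confidence intervals. The H3255 estimates for PLAU, PLAUR, F3 and PLAT lie between -1.58 and -0.87 for MinE07 against either control, and the H1975 estimates lie between -0.50 and -0.05.

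In H820 none of the 5 genes tested was called for MinE07 against C36, where 5 of 13753 genes (0.0364%) were called and 1396 had an unadjusted p under 0.05. PLAU read 43.8, 48.3 and 48.0 FPKM with MinE07, 43.9, 43.1 and 43.7 with C36, and 40.9, 42.3 and 38.7 with vehicle. The MinE07 and C36 libraries overlap and the vehicle libraries are lowest. PLAU changed by 0.10 against C36 (95% interval 0.00157 to 0.192, adjusted p = 0.485) and by 0.20 against vehicle (adjusted p = 0.0396), the opposite sign to H3255. That was the only call of the 5 against vehicle, where 1.99% of genes were called higher. It was lost with no filter (adjusted p = 0.178), and without any 1 library of this line other than the first MinE07 library (adjusted p 0.0538 to 0.127).

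The other H820 genes differed little between treatments. PLAUR read 17.0, 18.2 and 18.8 FPKM with MinE07 and 17.6, 20.1 and 17.1 with C36, a change of -0.02 (95% interval -0.176 to 0.14, adjusted p = 0.953). PLAT read 4.25, 4.46 and 4.23 FPKM with MinE07 and 3.97, 3.96 and 3.95 with C36, which do not overlap, with a change of 0.11 (adjusted p = 0.367). F3 read 16.4, 17.0 and 17.0 FPKM with MinE07 and 18.5, 19.0 and 16.7 with C36, a change of -0.10 (adjusted p = 0.501). SERPINE2, the serpin most abundant in this line, read 27.9, 27.4 and 26.9 FPKM with MinE07 and 26.8, 27.1 and 27.2 with C36, a change of 0.02 (95% interval -0.0398 to 0.0807, adjusted p = 0.829). For PLAUR, PLAT and F3 the interval excludes a fall of the size seen in H3255.

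In A549, with WT EGFR, none of the 4 genes tested was called for MinE07 against C36, where 0 of 13425 genes (0%) were called by limma and 1455 had an unadjusted p under 0.05. PLAUR read 19.9, 21.7 and 21.5 FPKM with MinE07, 23.3, 24.7 and 24.9 with C36, and 21.3, 18.6 and 18.6 with vehicle. The MinE07 libraries lay below the C36 libraries and overlapped those of vehicle. The PLAUR change was -0.20 against C36 (adjusted p = 0.347) and 0.11 against vehicle (adjusted p = 0.444). PLAU read 11.4, 12.1 and 11.1 FPKM with MinE07 and 12.7, 12.4 and 12.7 with C36, a change of -0.12 (adjusted p = 0.408). F3 changed by -0.08 (adjusted p = 0.757), and PLAT, between 0.230 and 0.405 FPKM in all 9 libraries, was below the filter. Against vehicle none of the 4 was called either, where 0.216% of genes were.

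C36 against vehicle gives the background of the control aptamer. None of the genes tested was called in H3255 (4 tested), H1975 (4 tested) or H820 (5 tested), where 0.305%, 0.233% and 2.85% of genes were called. In A549, where 6% of genes were called, PLAUR was higher with C36 by 0.31 (SE 0.0589, adjusted p = 0.019). SERPINE2 was lower, reading 5.19, 5.31 and 5.25 FPKM with C36, 4.97, 5.06 and 5.45 with MinE07, and 7.01, 5.999 and 6.41 with vehicle. Both aptamer groups lay below vehicle in SERPINE2, by -0.28 for C36 (SE 0.0571, adjusted p = 0.0241) and by -0.30 for MinE07 (adjusted p = 0.069). Relative depth was 0.903 to 1.019 in the A549 C36 libraries and 0.915 to 1.385 in vehicle, and its part in these differences was not tested. CD68 was also higher with C36 than with vehicle in A549 (94.3 against 71.5 FPKM, 0.40, adjusted p = 0.0232), with the 4 leukocyte markers summing to 94.2 to 98.0 FPKM against 68.0 to 82.5 and PTPRC and CD3E near 0; its part was not tested. Both calls rested on single libraries. PLAUR was not called without the second or the third C36 library (adjusted p = 0.071 and 0.0891) or the second or the third vehicle library (0.0519 and 0.0658). SERPINE2 was not called without any 1 of the 3 C36 libraries (0.0746, 0.0794 and 0.0948) or without the third vehicle library (0.0716). With no filter on low values the adjusted p was 0.0984 for PLAUR and 0.109 for SERPINE2.

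The responses to MinE07 against C36 were then compared between lines in the fit of all 36 libraries. The fall in H3255 exceeded that in A549 by -1.41 for PLAU (SE 0.0774, adjusted p = 1.33e-13), -1.08 for PLAUR (adjusted p = 4.25e-11) and -0.88 for F3 (adjusted p = 7.21e-08). These are the 3 genes above the filter in both lines, and 14% of all genes were called lower. PLAT, at 0.312 FPKM with MinE07 and 0.322 with C36 in A549, was too low there for its response to be compared. Against H1975, the other L858R line, the H3255 response was lower by -1.27 for PLAU (adjusted p = 1.01e-12), -1.06 for PLAUR (adjusted p = 6.51e-11), -0.82 for PLAT (adjusted p = 1.39e-07) and -0.61 for F3 (adjusted p = 4.2e-05), with 8.48% of genes called lower. Among these 4 genes F3 had the smallest difference. H820 was set against H3255 and H1975 after the values had been seen. The H3255 response was lower than that of H820 by -1.63 for PLAU, -1.27 for PLAUR, -0.98 for PLAT and -0.87 for F3 (11.2% of genes called lower). H1975 was lower than H820 for PLAU alone, by -0.36 (adjusted p = 0.00352; 4.19% of genes called lower).

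None of the 3 genes above the filter in both lines was called in H1975 against A549, where 12.6% of genes were. The H1975 minus A549 difference was -0.28 for F3 (95% interval -0.478 to -0.0779, adjusted p = 0.059), -0.14 for PLAU (-0.3 to 0.0176, adjusted p = 0.254) and -0.02 for PLAUR (-0.185 to 0.142, adjusted p = 0.905). So the H1975 falls in PLAU and PLAUR were called within that line, but they were not shown to be larger than the uncalled values of A549. F3 was called here with a pseudocount of 1 (adjusted p = 0.0336) and after rescaling (adjusted p = 0.0456). In H820 against A549 none of PLAU, PLAUR, F3 and SERPINE2 was called, where 0.323% of genes were, and PLAU differed by 0.22 (95% interval 0.0619 to 0.379, adjusted p = 0.225).

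**Figure D3:**
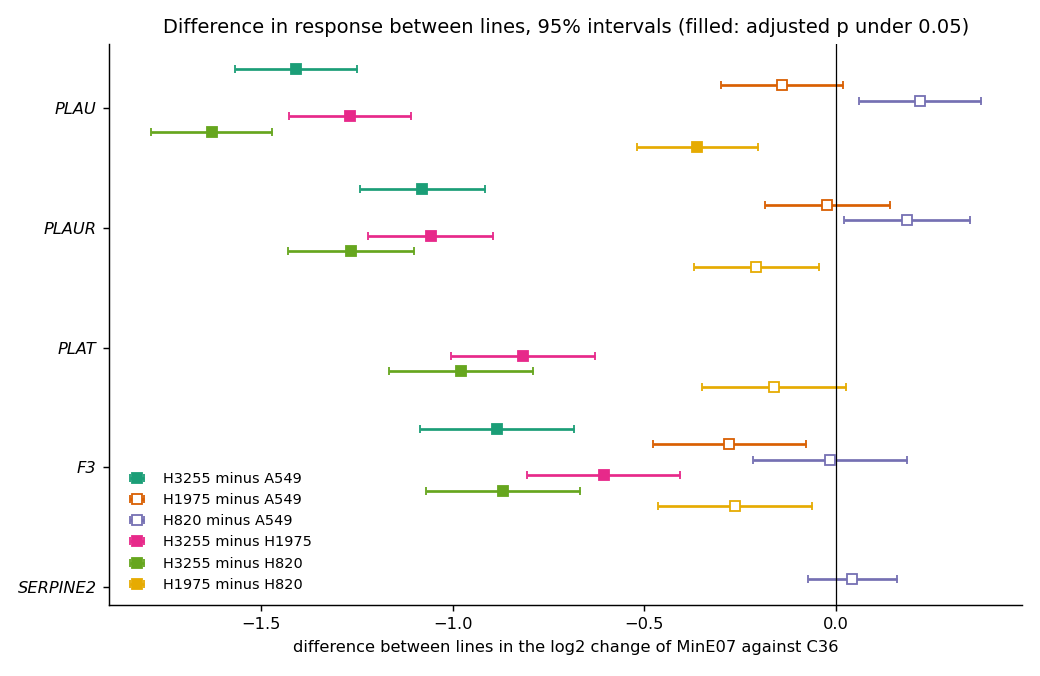
Difference between lines in the log2 change of MinE07 against C36, from the fit of all 36 libraries; points are estimates, bars are 95% confidence intervals, and only genes above the filter in both lines of a pair are drawn. All differences that involve H3255 lie between -1.63 and -0.61, and those between the other lines lie between -0.36 and 0.22.

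Other genes of the system, listed by function, gave mixed directions. Of 15 other plasminogen system genes, 6 were tested in H3255 for MinE07 against C36, with 3 called higher and 2 lower and a median log2 change of 0.05, beside -0.01 over all genes. Of all genes tested in H3255, 16.6% were called higher and 20% lower. LRP1, the endocytic receptor that clears uPA bound to serpins, rose by 0.33 (4.36 against 3.36 FPKM, adjusted p = 9.47e-05), and also exceeded vehicle (0.42, adjusted p = 1.77e-05). S100A10, a plasminogen receptor, was higher by 0.17 than with C36 (345 against 307 FPKM, adjusted p = 0.00293) but not against vehicle (-0.05, adjusted p = 0.292), and C36 itself was below vehicle (-0.21, adjusted p = 0.0383). ENO1, a glycolytic enzyme that also binds plasminogen at the cell surface, changed by -0.38 against C36 (adjusted p = 0.000118) and -0.53 against vehicle (adjusted p = 1.12e-05). IGF2R, which binds the urokinase receptor, changed by -0.15 against C36 (adjusted p = 0.00434), and its -0.02 against vehicle was not called (adjusted p = 0.681).

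In H1975, 10 of the 15 were tested, with 3 called higher and 1 lower and a median of 0.08. Of all genes tested there, 8.88% were called higher and 11.1% lower. VTN, vitronectin, a matrix protein and ligand of the urokinase receptor, rose by 0.43 (1.66 against 1.11 FPKM, adjusted p = 0.00216). SERPINA5, the protein C inhibitor, which also inhibits uPA, rose by 0.37 (adjusted p = 0.0016), and LRP1 by 0.30 (adjusted p = 0.00246). ENO1 changed by -0.12 (adjusted p = 0.0297). All 4 were also called in the same direction against vehicle. None of the 8 tested in H820 or the 10 tested in A549 was called for MinE07 against C36. Of all genes, 0.0364% were called in H820 and 0% in A549. PLG, the plasminogen gene, averaged at most 0.203 FPKM in vehicle, in A549, so RNA for the substrate of uPA and tPA was near 0 in all 4 lines.

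Of 13 other proteases and inhibitors, 5 were tested in H3255, with 1 called higher (HPN, the membrane protease hepsin, by 0.47, 4.16 against 2.87 FPKM, adjusted p = 2.73e-05) and 0 lower. The shares over all genes were 16.6% higher and 20% lower. In H1975, 6 were tested, with 3 called higher and 2 lower, beside 8.88% and 11.1% of all genes. TIMP2, a metalloproteinase inhibitor, rose by 0.27 (55.8 against 46.2 FPKM, adjusted p = 0.000144) and by 0.29 against vehicle (adjusted p = 0.00012). The other 3 named genes were called against C36 only. The collagenase MMP13 differed by 0.35 (adjusted p = 0.0167) from C36 and -0.05 from vehicle (adjusted p = 0.687). TIMP1 differed by -0.18 (adjusted p = 0.0233) and -0.14 (adjusted p = 0.0514), and MMP14, a membrane metalloproteinase, by -0.14 (adjusted p = 0.00983) and -0.0078 (adjusted p = 0.885). No member of this list was called in H820 or A549 for this comparison, where 0.0364% and 0% of all genes were called.

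Genes around tissue factor included inhibitors that changed in the same direction as F3. In H3255, 6 of 9 were tested, with 0 called higher and 3 lower and a median of -0.14. Of all genes, 16.6% were called higher and 20% lower. TFPI2, a Kunitz-type inhibitor of the tissue factor complex and of plasmin, went from 57.7 ± 0.510 FPKM with C36 to 28.9 ± 0.952 with MinE07 (-0.99, adjusted p = 3.84e-07). TFPI, the main inhibitor of the tissue factor pathway, went from 43.0 to 37.1 FPKM (-0.21, adjusted p = 0.00242), and F2RL1, the protease-activated receptor PAR2, changed by -0.22 (adjusted p = 0.00226). In H1975 TFPI2 (-0.39, adjusted p = 0.00304) and F2RL1 (-0.10, adjusted p = 0.0461) were lower and PROS1, the anticoagulant protein S, was higher (0.32, adjusted p = 0.0033), out of 6 tested. Over all genes there, 11.1% were called lower and 8.88% higher. In H820 (5 tested) and A549 (8 tested) none was called, where 0.0364% and 0% of all genes were.

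A list of 10 genes whose RNA follows ERK activity was set beside them. In H3255 all 10 were tested, with 9 called lower and 1 higher (SPRY2, 0.08, adjusted p = 0.032) and a median of -0.41. Over all genes 20% were called lower and 16.6% higher. SPRY4, an inhibitor of receptor signalling, changed by -0.86 (adjusted p = 1.51e-07) and DUSP6, an ERK phosphatase, by -0.69 (161 against 260 FPKM, adjusted p = 5.88e-07). In H1975, 8 of 9 tested were called lower with a median of -0.46, among them SPRY4 (-0.67, adjusted p = 0.000122), ETV4, an ETS factor (-0.59, adjusted p = 0.000106) and CCND1, cyclin D1 (-0.55, adjusted p = 1.25e-05). There 11.1% of all genes were called lower. With all 36 libraries fitted together, the response of H3255 minus H1975 was called lower for 4 of the 10 ERK genes and higher for 2. Their median was -0.12, beside 0.0024 over all genes. EPHA4 is among the 10 although it was below the filter in H1975. The share of all genes called higher is not reported here, so nothing is read from the 2 called higher. PLAU, PLAUR, PLAT and F3 were called lower for the same response. That response was called lower for 8.48% of all genes. None of 7 tested in H820 or 9 in A549 was called, with medians of -0.10 and -0.07. Almost no gene was called in these lines (0.0364% in H820 and 0% in A549).

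**Figure D4:**
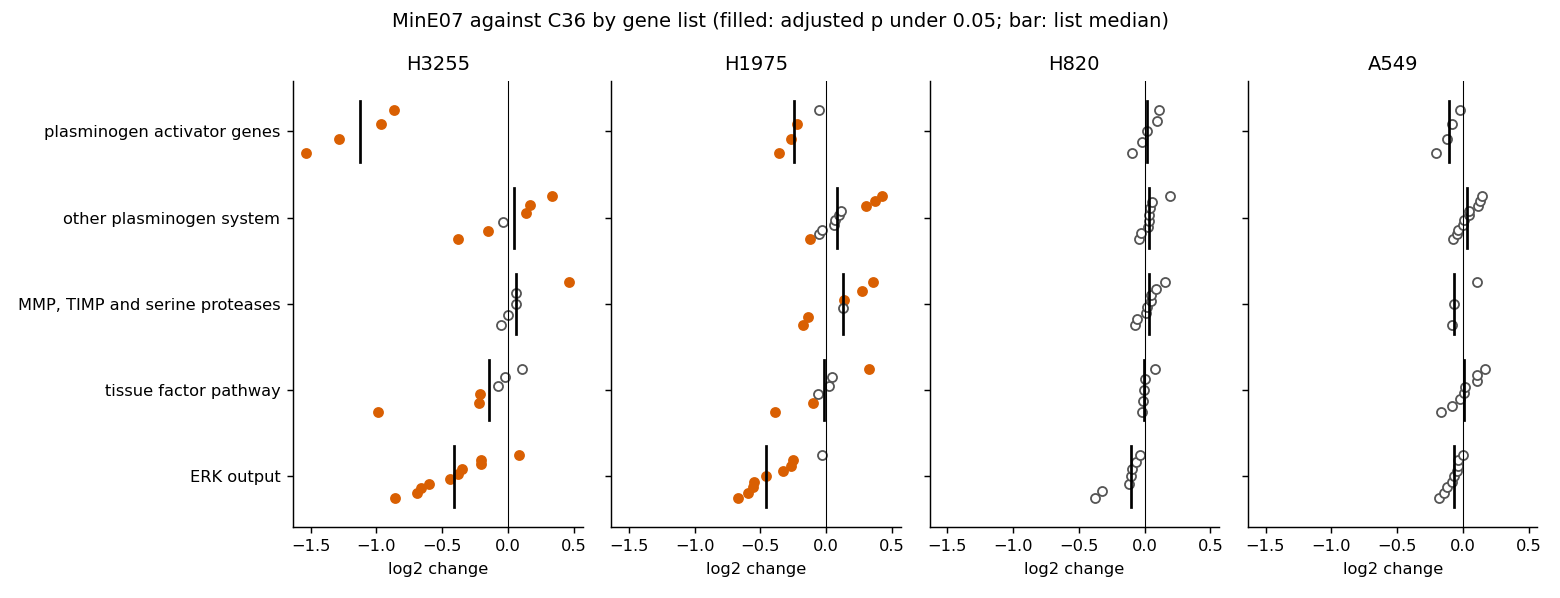
Log2 change of MinE07 against C36 for every tested gene of each list in each line; each point is 1 gene, filled points passed an adjusted p of 0.05, and short vertical bars are list medians. In H3255 PLAU, PLAUR, PLAT and F3 (labelled plasminogen activator genes) lie below nearly all genes of the other lists, and in H1975 they lie between -0.36 and -0.05.

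Across the 36 libraries, with each gene's log2 value centred on its mean in each line, PLAU and PLAUR followed each other (Pearson r = 0.967). Among 10993 other genes, ITGA2, the integrin alpha subunit of a collagen receptor, was the most like both (r = 0.969 for each). An entry the files list as a further copy of IER3, an early response gene, was the third most like each, after ITGA2 and the other gene of the pair (IER3-2, r = 0.964 with PLAU, and IER3-3, r = 0.963 with PLAUR). The libraries share their treatment groups, and the 3 H3255 MinE07 libraries lie apart, so r over the 27 libraries without H3255 is given beside it. There r was 0.592 for PLAU with PLAUR, 0.617 for PLAU with ITGA2 and 0.680 for PLAUR with ITGA2. It was higher for PLAU with IER3-2 (0.831) and for PLAUR with IER3-3 (0.781).

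F3 was most like PFKP, a phosphofructokinase of glycolysis (r = 0.954, and 0.833 without H3255), ERO1A, an oxidase of the endoplasmic reticulum (0.948 and 0.745), and AREG, the EGFR ligand amphiregulin (0.939 and 0.758). PLAT was most like AK4 (r = 0.944), AMIGO2 (0.936) and GJA1 (0.935), with r of 0.462, 0.340 and 0.160 without H3255. The r of PLAT with these genes thus fell without H3255, whereas that of F3 with PFKP stayed at 0.833 over the other lines pooled. No r was taken within a single line. SERPINE2 had its highest r with PERP (0.733, and 0.750 without H3255), AP4M1 (0.711 and 0.772) and HPGD (0.688 and 0.721). Its r was -0.068 with PLAU and -0.134 with PLAUR, and -0.289 and -0.429 without H3255. SERPINE2 was near 0 in H3255 and H1975, so its r values rest mainly on H820 and A549. These coefficients describe the libraries and carry no p.

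**Figure D5:**
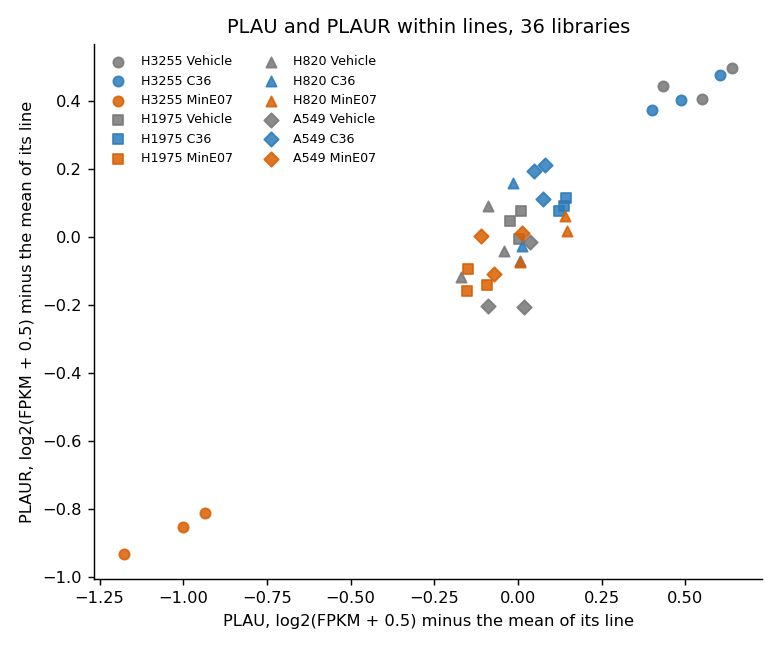
PLAUR against PLAU in the 36 libraries, both as log2(FPKM + 0.5) centred on each line's mean; each point is 1 library, with line and treatment marked. The 3 H3255 MinE07 libraries lie apart at the lower left, and r falls from 0.967 over 36 libraries to 0.592 over the 27 of the other lines.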

How the data were processed

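RNA was measured in 36 libraries; per the labels' protocols they were poly-A libraries from a stranded kit, read as pairs of 100 bases. The authors deposited 1 table of FPKM per library, and the submitters' processing notes name HISAT2, Cuffdiff and GRCh38.p12 (hg38) without versions or roles; which gene models were used is not given in the sources used here. Each file has 68271 entries, of which 1874 without a name and 31 repeated entries were left out. Without counts in the files only relative depth could be had, from the most common ratio of low values of the same gene to a reference library (ratios closed to within 0.0055 log2). A 0 is described as listed at 0.

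Values were analysed as log2(FPKM + 0.5), which understates changes of low genes, for genes with a mean of at least 1 FPKM in the fit. The 9 libraries of a line (3 groups), or all 36 (12 groups) for differences between lines, were fitted with trend and robust moderation (limma 3.58.1 under R 4.3.3, with statmod 1.5.0); p-values are two-sided and Benjamini-Hochberg adjusted over all genes tested, and called means an adjusted p under 0.05. Tables and figures used Python 3.11.15, pandas 2.3.3, numpy 2.4.6 and matplotlib 3.10.9. The fit was tested on simulated data. Alternatives were pseudocounts of 0.1 and 1, no filter, rescaling by medians of ratios, a replicate block, further copies of a gene left out, the fit of all 36 libraries, and leaving out each library. The genes, lists and tests were chosen with earlier results of these data known. All 6 genes are named throughout, and of the 4 other lists up to 4 called genes per list and line with the largest change of MinE07 against C36; SPRY2 and PLG were named after their values were seen, and 1 gene of the lists is not reported here. The 3 genes most like each member were taken by Pearson r among genes of at least 1 FPKM in each line.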

Additional observations from a re-analysis of the deposited data

Results flagged for a closer look

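In all, 12 differences between lines in the response to MinE07 against C36 passed the test of the difference itself (limma interaction terms over 36 libraries, adjusted over 14572 genes, log2 scale) for genes above the filter in both lines. H3255 minus A549 gave -1.409 for PLAU, -1.08 for PLAUR and -0.8841 for F3, with 14% of all genes called lower. H3255 minus H1975 gave -1.268 for PLAU, -1.058 for PLAUR, -0.8171 for PLAT and -0.606 for F3, with 8.48% of all genes called lower. The pairs with H820 were chosen after the values had been seen: H3255 minus H820 gave -1.63 for PLAU, -1.266 for PLAUR, -0.9782 for PLAT and -0.8691 for F3, and H1975 minus H820 gave -0.3614 for PLAU. Of all genes, 11.2% were called lower in H3255 minus H820 and 4.19% in H1975 minus H820. In each pair with H3255, all 3 of its MinE07 libraries lay below its 3 C36 libraries for each gene named. This pattern was found in 27.1% of the genes tested in H3255.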

How the results depend on the processing

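The calls of MinE07 against C36 for the 6 genes in H3255 (4 lower) and H1975 (3 lower) were the same under every alternative run, including each left-out library, where the H3255 changes stayed within -1.585 to -1.464 for PLAU, -1.311 to -1.25 for PLAUR, -0.9121 to -0.8065 for PLAT and -0.995 to -0.9521 for F3. With all libraries kept, 695 single-gene values stayed on their side of the threshold, 8 gained a call, 12 lost one and 2 near 0 changed sign, both with a pseudocount of 0.1 (SERPINE2 in H3255 minus A549, -0.0021; F3 in H820 minus A549, 1.4e-05). Counts of the 6 genes called also moved. C36 against vehicle in H3255 went from 0 to 1 after rescaling. C36 against vehicle in A549 went from 2 to 0, and MinE07 against vehicle in H820 from 1 to 0, each with no filter and with the replicate block. MinE07 against vehicle in A549 went from 0 to 1 (SERPINE2) in the fit of all 36 libraries. The response of H1975 against A549 went from 0 to 1 with a pseudocount of 0.1, and with 1 and after rescaling (F3 in both). The response of H1975 against H820 went from 1 to 2 with a pseudocount of 0.1. Counts of responses include SERPINE2, which averaged 0.0242 FPKM with C36 and 0.0624 with MinE07 in H1975. A pseudocount of 0.1 widens differences between such low values, so no response is read from the calls gained with it. The causes were not tested.

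With 1 library left out the count ran from 0 to 2 for C36 against vehicle in A549, 0 to 1 for MinE07 against vehicle in A549 and in H820 and for the response of H1975 against A549, and 1 to 2 for H1975 against H820. Uncalled values that changed sign ranged from -0.1412 to 0.02441 (F3) and -0.05972 to 0.0003392 (SERPINE2) for MinE07 against C36 in A549, and from -0.0988 to 0.004878 (PLAU) for C36 against vehicle in H3255. In H820 PLAUR ranged from -0.02613 to 0.09985 (C36 against vehicle), -0.06393 to 0.05091 (MinE07 against C36) and -0.02252 to 0.08189 (MinE07 against vehicle), and PLAT from -0.02355 to 0.01247 (MinE07 against vehicle). For the responses the ranges were -0.1064 to 0.0223 (PLAT) and -0.06093 to 0.008261 (PLAUR) in H1975 against A549, -0.005737 to 0.05432 (SERPINE2) in H3255 against A549 and -0.1235 to 0.04208 (F3) in H820 against A549. PLAT in A549 and SERPINE2 in H3255 were below the filter in their own line, so their ranges are not read as differences in response.

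Replicate numbers are not stated to pair libraries. Same-numbered libraries deviated together, with r over 0.1, in 3 of 9 pairs in H3255, 1 of 9 in H1975, 4 of 9 in H820 and 0 of 9 in A549. Their highest r was 0.246, 0.15, 0.189 and 0.063 in these lines. Differently numbered libraries reached 0.194, 0.192, 0.137 and 0.122. The block was kept as an alternative. It took calls from 2 to 0 for C36 against vehicle in A549 (adjusted p = 0.0595 for PLAUR and 0.061 for SERPINE2) and from 1 to 0 for MinE07 against vehicle in H820 (PLAU, 0.0814). It also took away the call of SERPINE2 between H3255 and H1975 in vehicle (0.0554), and no other call of the 6 genes.

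Over all genes, some counts moved by over 1.5 times. With no filter the count fell from 2829 to 1740 (MinE07 against C36) and from 3364 to 2073 (against vehicle) in H1975, from 415 to 125 (MinE07 against vehicle) and 392 to 82 (C36 against vehicle) in H820, from 805 to 158 (C36 against vehicle) in A549, and it rose from between 12202 and 12690 to between 21153 and 21897 for the levels in vehicle as more genes were tested. The fit of all 36 libraries called 230 genes rather than 0 for MinE07 against C36 in A549, and 19 rather than 5 in H820, and 659 rather than 29 for MinE07 against vehicle in A549. For C36 against vehicle the counts of 41 in H3255, 33 in H1975 and 805 in A549 became 369, 270 and 2260 in that fit. Rescaling changed the split of genes called in H1975 against A549 in vehicle from 7623 higher and 4700 lower to 6223 and 6024. Others were those of the block (H820 186 for MinE07 against vehicle and 157 for C36 against vehicle, A549 288 for C36 against vehicle) and 6, 150 and 17 for C36 against vehicle in H3255, 1, 82 and 0 in H1975 (no filter, rescaled, block), 1 for MinE07 against C36 in H820 (block) and 3 in A549 (no filter), 47, 4, 54 and 0 for MinE07 against vehicle in A549 (pseudocount 0.1, no filter, rescaled, block), and 89, 84 and 29 rather than 47 for the response of H820 against A549 (pseudocount 1, no filter, block).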
